A study of Mus musculus with 4 samples.

Results

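Neutrophil granule genes, measured in sorted mature olfactory sensory neurons of the mouse line Nd1 and of control mice, are described here. The 9 genes Ngp, Camp, Retnlg, Lcn2, Ltf, S100a8, S100a9, Mpo and Ppbp were taken by name from the 28168 loci of the authors' table, and each had exactly 1 locus there. Olfactory epithelia were dissociated with papain, the neurons were collected by fluorescence-activated sorting, and polyadenylated RNA was sequenced in 2 Nd1 and 2 control libraries. Both Nd1 libraries had the genotype Nd1+/- with OMP-IRES-tTA+/- and OMP-IRES-GFP+/-, in mice of 212 days (replicate 1) and 87 days (replicate 2). The control of replicate 1 (212 days) carried Nd1+/- and OMP-IRES-GFP+/- but no tTA allele, and the control of replicate 2 (87 days) carried OMP-IRES-tTA+/- and OMP-IRES-GFP+/- but no Nd1. All 4 libraries thus share the GFP reporter at Omp, a gene of mature olfactory neurons, and in those that carry tTA, a transcriptional activator, it is placed at the same gene. Per the series title, the transgenic mice express double-stranded RNA encoded in the genome. How many mice stand behind a library is not stated, and a table heading calls the controls littermates.

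Neutrophils are short-lived white blood cells that carry antimicrobial proteins in granules. The proteins are laid down in successive stages of maturation in the bone marrow, with myeloperoxidase and elastase in primary granules and lactoferrin, cathelicidin and lipocalin in the later, specific granules, and transcription factors of the C/EBP family drive many of the genes. Several of the products are not exclusive to neutrophils. Lipocalin, lactoferrin and the S100a8 and S100a9 proteins are also made by mucosal epithelia and glands, and Ppbp encodes a chemokine best known from platelets, so the name of the group does not fix the cell that made the RNA.

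Promoter sequences are shown for the 5 genes whose 250 bases before the start site hold the letters TTGCNNAA on either strand, a form of the C/EBP core, with the matches in capitals. The sequences are from RefSeq on build GRCm38.p6, and all 9 genes matched an entry of that table by symbol.
Ngp, chr9:110419558-110419807, plus strand: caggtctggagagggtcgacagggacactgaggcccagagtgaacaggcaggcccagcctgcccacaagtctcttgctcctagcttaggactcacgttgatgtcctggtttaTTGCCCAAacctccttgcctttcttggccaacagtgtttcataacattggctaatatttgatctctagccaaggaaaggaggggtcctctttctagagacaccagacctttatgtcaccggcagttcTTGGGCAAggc
Retnlg, chr16:48872358-48872607, plus strand: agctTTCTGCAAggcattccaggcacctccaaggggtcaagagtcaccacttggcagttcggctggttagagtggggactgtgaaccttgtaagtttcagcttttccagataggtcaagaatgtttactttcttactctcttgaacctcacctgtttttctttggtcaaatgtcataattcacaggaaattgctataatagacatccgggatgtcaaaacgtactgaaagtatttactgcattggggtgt
Lcn2, chr2:32387740-32387989, minus strand: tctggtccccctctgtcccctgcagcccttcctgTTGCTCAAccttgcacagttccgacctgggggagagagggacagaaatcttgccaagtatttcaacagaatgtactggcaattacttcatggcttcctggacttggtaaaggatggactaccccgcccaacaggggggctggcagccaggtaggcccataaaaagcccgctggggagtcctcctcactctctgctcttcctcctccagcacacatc
Ltf, chr9:111019042-111019291, plus strand: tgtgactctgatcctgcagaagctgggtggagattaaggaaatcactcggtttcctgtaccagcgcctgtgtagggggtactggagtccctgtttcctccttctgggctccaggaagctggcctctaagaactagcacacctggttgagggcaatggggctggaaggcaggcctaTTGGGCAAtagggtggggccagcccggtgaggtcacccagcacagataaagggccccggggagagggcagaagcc
S100a9, chr3:90695722-90695971, minus strand: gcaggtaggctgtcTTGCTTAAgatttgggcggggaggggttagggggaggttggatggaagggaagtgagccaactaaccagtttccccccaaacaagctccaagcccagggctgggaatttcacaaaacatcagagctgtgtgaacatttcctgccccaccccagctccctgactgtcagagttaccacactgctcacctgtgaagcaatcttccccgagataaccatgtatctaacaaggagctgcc
Ngp held 2 matches, which began 138 and 11 bases before the start site, and the other 4 genes held 1 each. The same letters occurred in 9.56% of all 32851 promoter windows of this length. The letters GAGGAA, a core of the myeloid factor PU.1, were present in Lcn2, Ltf, Mpo and S100a8, beside 23.3% of all windows. The GATA-type letters AGATAA occurred in Ltf and S100a9, beside 9.99% of all windows. The looser form TTNCNNAA, which includes every TTGCNNAA match, was found in 6 of the 9 genes (the 5 above and S100a8) and in 36.8% of all windows, whereas the STAT-type letters TTCNNNGAA and a core of the NF-kB motif occurred in 0 of the 9, beside 7.02% and 17.6% of all windows. A match of letters is a description of these windows and no evidence of binding.

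The granule genes were lower in the RNA of the sorted Nd1 cells, and which cells made this RNA was not tested. All 9 had a smaller value in Nd1 than in control, 8 fell at the authors' threshold of q under 0.05, and 1, Ltf, did not pass. The authors' deposited table has 14841 tested loci, of which 19.2% fell at this threshold and 34.4% changed in either direction. A fall of at least 4-fold, or to a listed 0, was found in 7 of the 9 genes, against 5.77% of all tested loci. The 9 genes were chosen with earlier results of these data known, so these shares and those given below describe them and are no test. Values are in FPKM, the number of fragments scaled to transcript length and to library size, so levels can be set beside each other between genes. The table gives 1 pooled value per group, so the spread between libraries and any overlap of the groups cannot be shown, and no test beyond the authors' own, made with Cuffdiff, was possible. In bulk RNA, fewer cells of a type and less RNA per cell cannot be told apart.

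**Figure D1:**
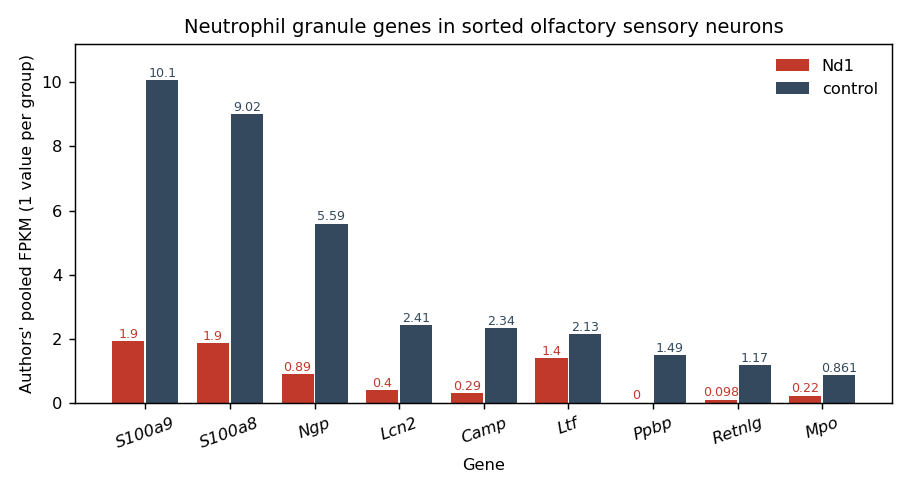
Authors' pooled FPKM (vertical axis, from 0) of the 9 granule genes (horizontal axis), with Nd1 as the left bar and control as the right bar of each pair. There is 1 value per group and no error bar. Every Nd1 bar lies at or below 1.92 FPKM, the level of S100a9, and 6 of the 9 control bars exceed that level.

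The calcium-binding proteins S100a8 and S100a9 pair into calprotectin, an abundant cytosolic protein of neutrophils that withholds metal ions from microbes. S100a9 (mm9 chromosome 3, 90496555 to 90499613) had 1.92 FPKM in Nd1 and 10.1 FPKM in control. S100a8, on the same chromosome at 90472993 to 90473956, had 1.86 FPKM in Nd1 and 9.02 FPKM in control. Both fell, and the authors' deposited table lists log2 fold changes of -2.39 (q = 4.11e-15) for S100a9 and -2.28 (q = 5.12e-07) for S100a8. The pair was the most abundant of the group in both conditions and made up 53.4% of the summed FPKM of the 9 genes in Nd1 and 54.4% in control. The ratio of S100a9 to S100a8 was 1.03 in Nd1 and 1.12 in control.

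Among the specific granule genes, Ngp encodes neutrophilic granule protein, Camp the cathelicidin from which the antimicrobial peptide CRAMP is cut, and Lcn2 a lipocalin that binds bacterial siderophores. Ngp (mm9 chromosome 9, 110322312 to 110325516) had 0.888 FPKM in Nd1 and 5.59 FPKM in control, and the authors' deposited table gives a log2 fold change of -2.65 (q = 1.21e-13). Camp (chromosome 9, 109749891 to 109751970) had 0.290 FPKM in Nd1 and 2.34 FPKM in control, where the authors' deposited table lists a log2 fold change of -3.01 (q = 0.000132). For Lcn2 (chromosome 2, 32240157 to 32243259) the levels were 0.403 FPKM in Nd1 and 2.41 FPKM in control, and the listed change was -2.58 on the log2 scale (q = 9.52e-06, from the authors' deposited table). These 3 genes stood at 15.9% (Ngp), 12.4% (Camp) and 16.7% (Lcn2) of their control level, below the 19.1% of S100a9 and the 20.7% of S100a8. Differences of this size between genes were not tested.

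Ltf, which encodes the iron-binding protein lactoferrin, was the exception. Its level (mm9 chromosome 9, 110921796 to 110945270) was 1.40 FPKM in Nd1 and 2.13 FPKM in control, 65.8% of the control level, and its listed log2 fold change of -0.60 did not pass (q = 0.0987, from the authors' deposited table). In Nd1 Ltf was more abundant than Ngp, with a ratio of 1.58, whereas in control it was less abundant, with a ratio of 0.381. Its share of the summed FPKM of the 9 genes was 19.8% in Nd1 and 6.07% in control. Ltf is also a product of nasal glands, whose genes are given below. Lcn2, in the same list of gland genes, stood at 16.7% of control. Which cells made the RNA of either gene was not tested.

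Mpo, the myeloperoxidase of primary granules, and Retnlg, a resistin-like secreted protein of neutrophils, were the least abundant in control. Mpo (mm9 chromosome 11, 87607286 to 87617914) had 0.223 FPKM in Nd1 and 0.861 FPKM in control, for which the authors' deposited table lists -1.95 on the log2 scale (q = 6.72e-05). Retnlg (chromosome 16, 48872721 to 48874611) had 0.0984 FPKM in Nd1 and 1.17 FPKM in control. Its log2 fold change of -3.57, an 11.8-fold lower level, was the largest of the group with a value above 0 in both conditions, and of the 8 calls in the authors' deposited table it had the highest q-value (0.0218). The other resistin family genes Retn, Retnla and Retnlb were listed at 0 in both groups.

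Ppbp, the precursor of a platelet chemokine that attracts neutrophils (mm9 chromosome 5, 91197544 to 91199086), was listed at 0 in Nd1, with 1.49 FPKM in control, and was called lower (q = 2.52e-06) in the authors' deposited table. No fold is given against a listed 0, which in a table without counts need not be a true absence. Such a call was uncommon, with 34 tested loci both called and at 0 in Nd1.

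Summed over the 9 genes, the level was 7.09 FPKM in Nd1 and 35.1 FPKM in control, or 20.2% of control. The median gene stood at 0.403 FPKM in Nd1 and 2.34 FPKM in control. On the scale log2(FPKM + 1), which keeps Ppbp in the count and understates changes of low genes, the median ratio was -1.32, against -0.058 over all tested loci. Leaving Ppbp out gave -1.33. Among the 6128 tested loci whose control level lay between those of Mpo and S100a9, 22.3% fell and 9.94% fell at least 4-fold or to a listed 0. Most of the steep falls at this level were odorant receptors, and without them the shares were 13.1% and 1.05% of 5411 loci. Of the 14704 tested loci above 0 in both groups, 442 had a steeper ratio than Retnlg, 675 a steeper ratio than Ngp and 2266 a steeper ratio than Ltf.

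**Figure D2:**
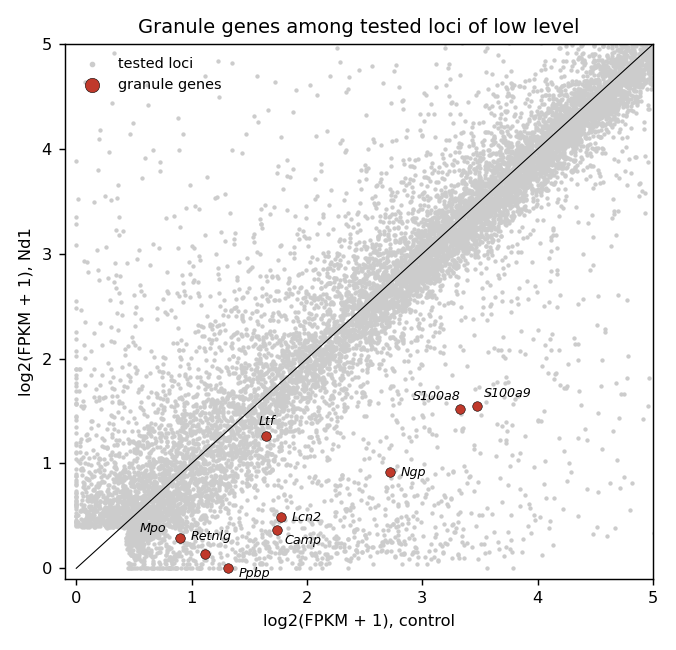
Each grey point is a tested locus below 32 FPKM in both groups, placed by log2(FPKM + 1) in control (horizontal axis) and in Nd1 (vertical axis), and the line marks equal levels. The 9 granule genes (red) lie below the line, with Ltf nearest to it and Ppbp at 0 in Nd1.

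Genes beside the granule genes on the chromosome were compared next. The nearest named loci on either side gave 16 distinct genes outside the group. Of these, 9 were tested by the authors' deposited table, of which 1 fell, 1 rose and 7 missed the threshold, and the other 7 were not tested. Klhl18, 2.91 kb from Ngp, fell to 8.08 FPKM in Nd1, against 9.58 FPKM in control (q = 0.00799), and Dzip3, 49.7 kb from Retnlg, rose to 8.02 FPKM, against 5.51 FPKM in control (q = 7.86e-05), both in the authors' deposited table. S100a7a, the neighbour of S100a8 within the S100 cluster, did not pass, with 0.462 FPKM in Nd1 and 0.0451 FPKM in control. Pf4, the platelet chemokine gene 2.37 kb from Ppbp, was not tested and was listed at 0 in Nd1, with 0.285 FPKM in control. No other locus with a symbol overlapped a granule gene. Ngp, Camp and Ltf lie within 1.20 Mb of chromosome 9, where 6 of 13 other tested loci fell and 0 rose, none of them by 4-fold or more. Over all tested loci 19.2% fell and 15.1% rose, and the difference of this stretch from them was not tested.

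**Figure D3:**
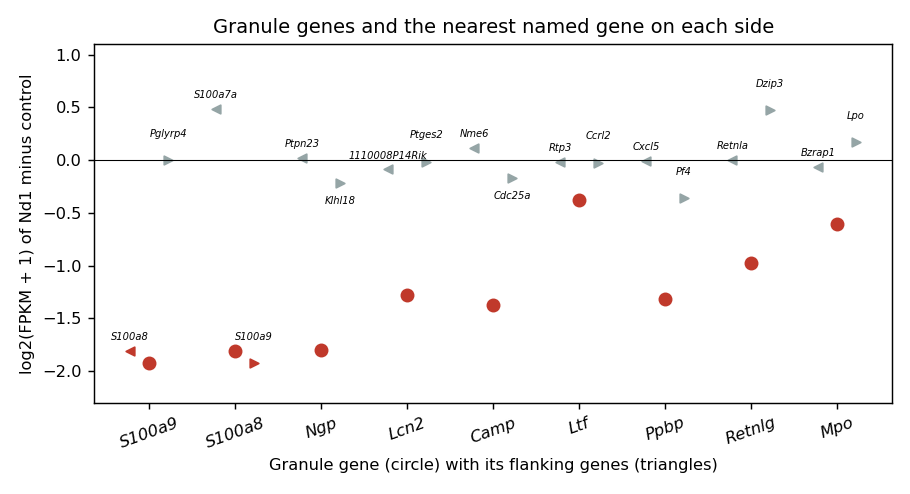
Difference of log2(FPKM + 1), Nd1 minus control (vertical axis), for each granule gene (red circle) and the nearest named gene on its lower-coordinate side (left triangle) and higher-coordinate side (right triangle), with neighbours that are themselves granule genes in red. The grey triangles lie between -0.36 for Pf4 and 0.48 for S100a7a. This scale understates changes of low genes such as these, and 7 of the 16 neighbours were not tested.

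Most of the other neutrophil genes listed were not tested or did not pass. Tested or not, values were smaller in Nd1 for 6 of 8 further primary granule genes and 11 of 15 specific and gelatinase granule genes. The same held for 8 of 13 genes of neutrophil cytosol and maturation and 15 of 21 surface receptor genes. Values were larger in Nd1 for 1, 3, 1 and 4 genes of these lists, in that order. Of 8 further primary granule genes with a locus, the authors' deposited table has 4 as tested, 2 as falls and 0 as rises. Elane, neutrophil elastase, fell to 0.0879 FPKM in Nd1, against 0.838 FPKM in control (q = 0.00568), and the granule membrane protein Cd63, which many other cells also express, to 1.31 FPKM in Nd1, against 3.29 FPKM in control (q = 0.00161), both in the authors' deposited table. Prtn3, proteinase 3, was higher in value in Nd1 without passing, with 2.03 FPKM in Nd1 and 1.25 FPKM in control (q = 0.0695) in the authors' deposited table. Its neighbour in function Ctsg, cathepsin G, was not tested, with 0.102 FPKM in Nd1 and 0.281 FPKM in control.

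Of 15 further specific and gelatinase granule genes, the authors' deposited table has 6 as tested, with 2 falls and 1 rise. Chil3, a chitinase-like protein listed under its older symbol Chi3l3, fell to 0.192 FPKM in Nd1, against 0.795 FPKM in control, and the protease Adam8 to 0.329 FPKM in Nd1, against 0.740 FPKM in control. Olfm4, which encodes olfactomedin 4, rose to 133 FPKM in Nd1, against 10.7 FPKM in control. Its level in Nd1 was above that of every other neutrophil granule gene listed here, and which cells made this RNA was not tested. The protease Mmp9 did not pass, with 3.0 FPKM in Nd1 and 2.86 FPKM in control. Of 13 further genes of neutrophil cytosol and maturation, 6 were tested and 1 fell. That was Slpi, a protease inhibitor also made by glands, which was listed at 0 in Nd1, with 0.364 FPKM in control (q = 0.00536) in the authors' deposited table.

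Surface receptors that define neutrophils were close to 0 in both groups. Of 21 such genes with a locus only Ceacam10 was tested, and it did not pass, with 0.194 FPKM in Nd1 and 0.430 FPKM in control. Csf3r, the receptor for granulocyte colony-stimulating factor, had 0.0617 FPKM in Nd1 and 0.0984 FPKM in control, and the chemokine receptor Cxcr2 had 0.0373 FPKM in Nd1 and 0.0767 FPKM in control. The list summed to 1.05 FPKM in Nd1 and 2.47 FPKM in control. Ly6g, a further defining marker, was not analysed here. The oxidase genes Cybb, Cyba, Ncf1 and Ncf4 were likewise not tested and had values from 0.0548 to 0.0949 FPKM in Nd1 and from 0.187 to 0.265 FPKM in control.

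Transcription factors of the granulocyte lineage gave 2 falls and 0 rises among 5 tested in the authors' deposited table. Cebpb, a C/EBP factor of many tissues, fell to 3.99 FPKM in Nd1, against 7.39 FPKM in control (q = 0.00258), and Runx1 to 0.321 FPKM in Nd1, against 0.757 FPKM in control (q = 3.86e-06), both in the authors' deposited table. Cebpe, the factor known for driving specific granule genes, was not tested, with 0.0216 FPKM in Nd1 and 0.194 FPKM in control.

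Markers of other cells were compared in the same way, and their part in the falls of the granule genes was not tested. Of 8 tested genes shared by all leukocytes, the authors' deposited table has 1 lower and 3 higher, and 4 did not pass. Over all 14 genes of this list, 6 of them not tested, 11 had a smaller value in Nd1 and 3 a larger one. Ptprc, the leukocyte antigen CD45, fell to 0.0475 FPKM in Nd1, against 0.490 FPKM in control (q = 4.24e-06) in the authors' deposited table. By the same calls Ptpn6 rose to 58.3 FPKM in Nd1, against 17.5 FPKM in control. Lcp1 rose to 9.99 FPKM, against 2.97 FPKM, and Coro1a to 2.10 FPKM, against 1.02 FPKM. The 3 genes that rose stood above Ptprc in both groups, and which cells made their RNA was not tested. Monocyte and macrophage genes summed to 2.53 FPKM in Nd1 and 2.43 FPKM in control over 17 loci, of which 3 were tested and 1, Mpeg1, fell. The joined locus of Lyz1 and Lyz2, lysozymes of macrophages, neutrophils and glands, had 2.24 FPKM in Nd1 and 6.25 FPKM in control (q = 6.53e-07) in the authors' deposited table. Eosinophil, basophil and mast cell genes summed to 0.828 FPKM in Nd1 and 2.93 FPKM in control over 18 loci. Both tested genes of that list fell, the eosinophil granule gene Prg2 to a listed 0 in Nd1, against 0.752 FPKM in control, and Kit to 0.567 FPKM in Nd1, against 0.915 FPKM in control.

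Platelet genes bear on Ppbp. Of 18 others with a locus, 6 were tested, with 3 falls and 2 rises in the authors' deposited table, and 7 were listed at 0 in Nd1 but above 0 in control. The listed zeros in Nd1 were Pf4, Gp9, Treml1, Clec1b, Tubb1, Gp6 and Selp, none of them tested and none above the 0.285 FPKM of Pf4 in control. The falls were of Vwf (3.39 FPKM in Nd1 and 5.45 FPKM in control), Thbs1 (1.59 FPKM in Nd1 and 2.49 FPKM in control) and Gp1ba (0.286 FPKM in Nd1 and 0.639 FPKM in control). The integrin genes Itga2b (0.640 FPKM in Nd1 and 0.370 FPKM in control) and Itgb3 (0.420 FPKM in Nd1 and 0.157 FPKM in control) rose. Ppbp had the steepest difference of the list on the log2(FPKM + 1) scale. For a gene listed at 0 in Nd1 this difference depends on the control level alone, which was highest for Ppbp among those genes.

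Globin transcripts of red blood cells also fell. Hbb-b1, a beta globin, had 11.9 FPKM in Nd1 and 22.7 FPKM in control (q = 0.000453), and the alpha globin Hba-a2 had 23.2 FPKM in Nd1 and 40.5 FPKM in control (q = 0.000383), both in the authors' deposited table. They stood at 52.3% and 57.4% of control, beside 20.2% for the granule genes together, a difference that was not tested. Erythroid genes gave 4 falls and 1 rise among 10 tested, and Alas2, which makes haem in red cell precursors, did not pass, with 0.693 FPKM in Nd1 and 0.906 FPKM in control. Lymphocyte genes gave 0 falls and 2 rises among 5 tested. Over all 19 with a locus, 14 of them not tested, 11 had a smaller value in Nd1 and 6 a larger one. The granzyme Gzma rose to 5.65 FPKM in Nd1, against 0.257 FPKM in control. The MHC class II gene H2-Ab1 rose to 4.52 FPKM in Nd1, against 1.53 FPKM in control. H2-Aa, also of class II, did not pass, with 0.487 FPKM in Nd1 and 1.01 FPKM in control. Cd74 did not pass either (2.42 FPKM in Nd1 and 2.65 FPKM in control). Cd3e was at 0.0247 FPKM in Nd1, with a listed 0 in control. Cd79a was at 0.0451 FPKM in Nd1 and 0.151 FPKM in control.

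Gland and respiratory genes, which share Ltf and Lcn2 with the granule genes, gave 12 falls and 2 rises among 16 other tested genes by the authors' deposited table, and they summed to 168 FPKM in Nd1 and 377 FPKM in control. Bpifa1, a secreted protein of the upper airway, fell to 68.1 FPKM in Nd1, against 184 FPKM in control, Wfdc2 to 10.5 FPKM in Nd1, against 24.1 FPKM in control, Ascl3 to 18.5 FPKM in Nd1, against 42.8 FPKM in control, and Reg3g to 7.14 FPKM in Nd1, against 16.3 FPKM in control. The rises were of the odorant-binding genes Obp1a (1.98 FPKM in Nd1, with a listed 0 in control) and Obp2a, listed as Lcn13 (2.96 FPKM in Nd1 and 1.17 FPKM in control). Mature olfactory neuron genes, which the sort selects, gave 16 falls and 0 rises among 18 tested. Omp fell to 605 FPKM in Nd1, against 4087 FPKM in control, and S100a5, a neuronal relative of S100a8, to 1461 FPKM in Nd1, against 3542 FPKM in control. Of 4 housekeeping genes, Gapdh (55.5 FPKM in Nd1 and 55.3 FPKM in control), Actb and Hprt did not pass, and Eef1a1 rose to 479 FPKM in Nd1, against 320.3 FPKM in control (q = 0.000258), in the authors' deposited table.

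**Figure D4:**
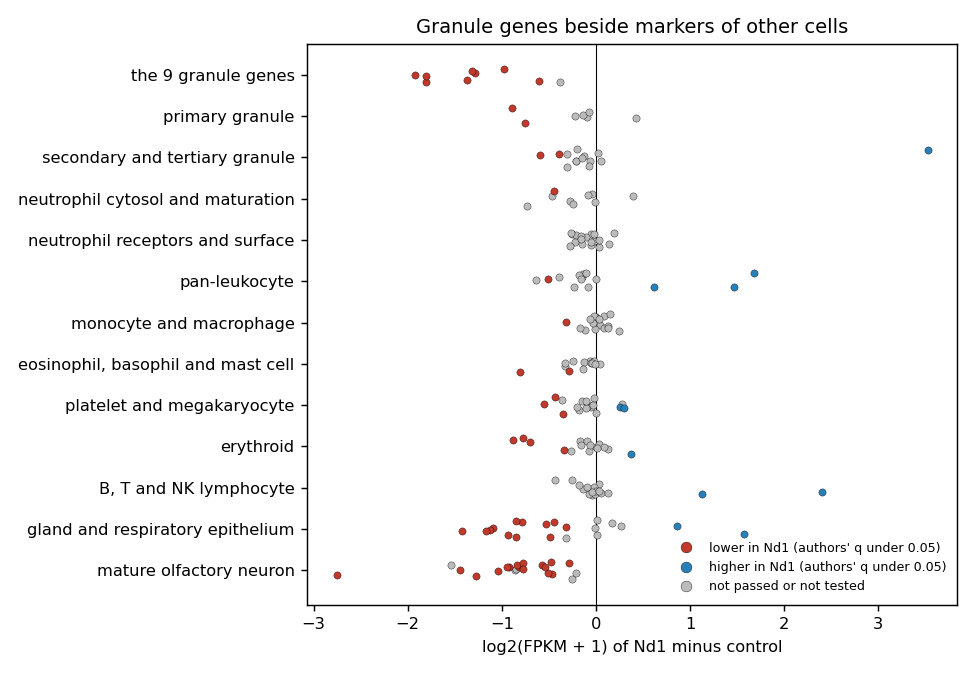
Difference of log2(FPKM + 1), Nd1 minus control (horizontal axis), for the 9 granule genes (top row) and for genes of the other lists without them (1 row per list, vertical jitter only), with genes at 0 in both groups left out. Red and blue points are the authors' calls of lower and higher, and grey points did not pass or were not tested. The granule genes spread from -1.92 to -0.38, Olfm4 stands at 3.53 among the specific granule genes, and the neutrophil receptors gather near 0, with low values in both groups.

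Receptors and partners of the granule products were also measured. Slc22a17, a receptor for lipocalin 2, rose to 135 FPKM in Nd1, against 106 FPKM in control (q = 2.19e-10) in the authors' deposited table, and was far more abundant than Lcn2 itself. Bsg, a binding partner of S100a9 reported on other cells, did not pass, with 185 FPKM in Nd1 and 189 FPKM in control, and Tlr4 and Fpr2 were not tested. Of 20 partner genes with a locus 6 were tested, and the remaining call was a fall of Cp, ceruloplasmin, which is known to bind lactoferrin and myeloperoxidase, to 0.352 FPKM in Nd1, against 0.585 FPKM in control (q = 0.0421) in the authors' deposited table. Cytokine genes that act on granulocytes gave 4 falls and 0 rises among 9 tested. The growth factor Csf1 fell to 0.755 FPKM in Nd1, against 1.35 FPKM in control, Kitl to 1.25 FPKM in Nd1, against 2.15 FPKM in control, Cxcl12 to 0.403 FPKM in Nd1, against 0.854 FPKM in control, and the receptor Il17ra to 3.30 FPKM in Nd1, against 4.61 FPKM in control. Csf3, the granulocyte growth factor itself, was not tested and was listed at 0 in Nd1, with 0.0865 FPKM in control.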

How the data were processed

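Single FPKM values per group for 28168 loci, log2 fold changes, p-values and q-values were computed by the authors and deposited as 1 table. Per the submitters' processing notes Bowtie and Cuffdiff 1.3.0 were used on build mm9. Annotation and filters: not given in the sources used here. Values combine the 2 libraries of each group, so 0 columns per library were used, the depth of each library is unknown, and neither limma nor intervals could be had. The deposited q-values are reported as the authors'.

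The starts of loci were raised by 1 base. The 9 genes and the 24 other gene lists were chosen with earlier results of these data known. Of 344 listed symbols 330 had a locus, found by symbol or RefSeq synonym, with the locus of the highest mean FPKM taken for each. Lists are reported with all genes of the 9 left out, and the result of 1 list is not reported here. Named were the 9 genes, defining markers, up to 4 called genes per list by size of change and the genes of small counts. A few were named after their values were seen (Prtn3, Ctsg, Mmp9, Ceacam10, Cebpe, Bsg, H2-Aa, Cd74, the oxidase genes, neighbours and housekeeping genes). Python 3.11.15 with pandas 2.3.3 was used, and the scaling and adjustment steps were tested on simulated data. Protein comparison was planned and not made. Alternatives were pseudocounts of 0.1 and 0.5, 3 scalings, a q threshold of 0.01, a 2-fold minimum, a filter at a mean of 0.5 FPKM and each gene left out.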

Additional observations from a re-analysis of the deposited data

How the results depend on the processing

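The median log2(FPKM + 1) ratio of the 9 granule genes, -1.32, moved to -2.33 with a pseudocount of 0.1 FPKM, since a smaller pseudocount weighs low values more. Under the other alternatives it lay between -1.84 (pseudocount of 0.5) and -1.23 (quantile normalization). Leaving out each gene in turn gave -1.34 to -1.30. The median gene was Ppbp, listed at 0 in Nd1, so the scalings that divide all Nd1 values by a single factor left the median at -1.32. The filter at a mean of 0.5 FPKM left out no gene. Those scalings and the filter are therefore no check of the median. The summed level, 20.2% of control, was 23.3% after quantile normalization, 21.7% when rescaled to the sum without odorant receptors, and 17.3% to 21.1% with each gene left out. The count of 8 genes that fell became 7 at q under 0.01, where Retnlg (q = 0.0218) was lost, and stayed 8 with a 2-fold minimum and with q adjusted over better expressed loci. All 45 ratios of single genes under an alternative kept their direction, and 9 moved by over 1.5 times, 8 of them under a smaller pseudocount and the other that of Ltf, -0.21 after quantile normalization in place of -0.38. Over the other lists 58 genes fell and 19 rose, or 47 and 16 at q under 0.01, and 59 and 20 with all loci of a symbol. Including joined loci, chosen after seeing the data, gave 59 and 19. No paired analysis was possible because the table holds 1 pooled value per group, and leaving out a replicate was not run for the same reason. Depth is unknown, and most neutrophil markers were not tested by the authors.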

Other observations

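Relatives of the granule genes moved in both directions. Of 14 other tested S100 genes, the authors' deposited table has 3 lower and 2 higher. S100z rose to 82.7 FPKM in Nd1, against 10.9 FPKM in control, and S100a6 to 72.9 FPKM in Nd1, against 9.86 FPKM in control, while S100a10 fell to 2.17 FPKM in Nd1, against 5.90 FPKM in control. Among other lipocalins 0 of 7 tested genes fell and 2 rose, Lcn11 (2.41 FPKM in Nd1, with a listed 0 in control) and Obp1a. Mfi2, which encodes melanotransferrin, a relative of lactoferrin, rose to 22.6 FPKM in Nd1, against 2.75 FPKM in control. Acute phase and iron genes gave 4 falls and 1 rise among 15 tested by the authors' deposited table. The iron exporter Slc40a1 fell to 0.355 FPKM in Nd1, against 1.66 FPKM in control, and the acute phase gene Orm2 to 0.594 FPKM in Nd1, against 1.38 FPKM in control, while the cytokine signalling inhibitor Socs3 rose to 6.66 FPKM in Nd1, against 3.87 FPKM in control. Among cystatin relatives Cst3 rose (50.5 FPKM in Nd1 and 36.6 FPKM in control) and Fetub fell (337 FPKM in Nd1 and 441 FPKM in control). Of 3 tested oxidase genes Rac1 rose (37.9 FPKM in Nd1 and 29.1 FPKM in control), and of 3 tested chemokine relatives of Ppbp Cxcl12 fell.

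The 5 named loci whose pair of values lay nearest to the median point of the 9 granule genes, which was 0.49 in Nd1 and 1.74 in control on the log2(FPKM + 1) scale, were Olfr13, Rin1, Olfr366, Olfr1272 and Olfr193. Olfr13 had 0.377 FPKM in Nd1 and 2.34 FPKM in control, and Rin1, a Ras effector, had 0.369 FPKM in Nd1 and 2.31 FPKM in control. With 1 value per group this likeness rests on a single level and a single ratio.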
